A study of Mus musculus with 4 samples.

Results

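The genes described here are 38 targets of the tumour suppressor p53, Bcl2 family members and death pathway genes, taken as a named list and measured in whole back skin with and without Bmal1. Of these genes 36 had a probe set that carried 1 gene symbol and passed the filter on low values, out of 14919 genes tested in all. Trp53 and Bax were not analysed here. Each array held RNA of 1 mouse of the C57Bl6 background, taken at postnatal day 22, when hair follicles were in telogen, the resting phase, and at ZT22, with ZT counting hours from lights on. The 2 heterozygous mice had 1 mutant and 1 wild-type Bmal1 allele, and the 2 knockout mice had lost both copies in the germline, so that every tissue and cell type lacked the gene. The series title concerns damage by UVB, but the labels name no irradiation of these 4 mice, and no wild-type mouse was compared. Values are log2 signals of Affymetrix whole-transcript arrays, and every difference is knockout minus heterozygous.

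p53 is a transcription factor that is stabilised when DNA is damaged. It switches on genes that halt the cell cycle and handle stress, and others that start cell death, and it also induces Mdm2, the ubiquitin ligase that has p53 degraded. Whether a cell then dies depends on the Bcl2 family: pro-survival members hold the pore-forming effectors in check, BH3-only members release them, and the pores let out mitochondrial proteins that activate caspases. Death receptors reach the same caspases from the cell surface. In epidermis this pathway removes keratinocytes with too much ultraviolet damage.

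The targeted gene and the tissue were checked first. Arntl, the symbol of Bmal1, gave signals of 8.90 and 9.08 with 1 intact allele and of 8.29 and 8.15 with none, a difference of -0.76 (SE 0.12, limma adjusted p = 0.015). Its probe set may hold probes outside the deleted part. Of 10 keratinocyte markers 9 were tested, and their mean log2 level was 11.83 to 12.19 in the heterozygous and 11.96 to 12.16 in the knockout arrays. All 10 skeletal muscle markers had higher means in the knockout, with a list mean of 12.16 to 12.19 against 12.59 to 12.86. The 7 sebocyte markers were also all higher (median difference 0.53), and the 5 tested markers of dividing cells were all lower (median -0.50). In whole skin, fewer cells of a type and less RNA per cell cannot be told apart, and the part of these marker shifts in the results was not tested. The other 10 lists of cell type markers, from fibroblasts to immune cells, had median differences of -0.17 to 0.08. Single markers in them differed more. Of 6 Langerhans and dendritic cell markers (median -0.17), 4 were lower and 2 higher in the knockout. Of the lower ones, 3 had a limma unadjusted p under 0.05, where 6.38% of all tested probe sets were lower at that level. A limma adjusted p under 0.05 was reached by 1 of them. It was also reached by 2 muscle and 2 sebocyte markers, all higher in the knockout, and by 2 markers of dividing cells, both lower. Of all tested probe sets 1.98% passed.

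No p53 target or apoptosis gene passed the test between genotypes. With limma, 0 of the 36 tested members had an adjusted p under 0.05, where 1.98% of all 16341 tested probe sets did. That share depends on the annotation: with probe sets that carry several genes tested too, 0 of 17557 passed, 15.5% had an unadjusted p under 0.05, and the adjusted p of Arntl was 0.10. At an unadjusted p under 0.05 there were 5 members, or 13.9%, against 17.9% of all tested probe sets. Of these 5, 4 were higher in the knockout, where the share over all probe sets was 11.6%, and 1 was lower, where it was 6.38%. The members' share was thus no larger than that of the array as a whole. The knockout arrays lay both above or both below the heterozygous arrays for 14 members, or 38.9%, against 49.8% of all tested probe sets. Of these 14, 11 lay above (27.8% over all probe sets) and 3 below (22.1%).

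The 5 members were Eda2r, Trp53inp1, Gadd45b, Mdm2 and Bcl2l2. Eda2r, a receptor of the TNF receptor family that binds ectodysplasin A2 and is induced by p53, showed the widest gap. It read 6.67 and 7.01 in the heterozygous and 7.70 and 7.39 in the knockout arrays, so that both knockout arrays lay above both heterozygous ones. The difference was 0.70, or 1.62-fold (SE 0.17, limma adjusted p = 0.068), and 1.58% of all tested probe sets differed by more in either direction. With 1 array left out it ran from 0.53 to 0.87. Its adjusted p was 0.010 to 0.43 over the other settings tried, and it passed in 4 of them. Among these was the fit without heterozygous array 2 (0.87, adjusted p = 0.027), whereas without knockout array 1 the adjusted p was 0.43. All 10 skeletal muscle markers, higher by a median of 0.52, also had both knockout arrays above both heterozygous ones. So did 4 of the 7 sebocyte markers and 27.8% of all tested probe sets. Any link of these markers with Eda2r was not tested.

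Trp53inp1, a stress protein that is induced by p53 and in turn promotes p53 activity, was the 1 member of the 5 with lower values in the knockout. Its signal was 9.87 and 10.29 in heterozygous skin, against 9.67 and 9.68 without Bmal1. The knockout pair agreed closely, while the heterozygous pair lay 0.41 apart, as wide as the difference between genotypes of -0.41 (SE 0.14, limma adjusted p = 0.18). The value thus turned on which heterozygous array was used: leaving out heterozygous array 1 gave -0.61 (adjusted p = 0.029), and leaving out the other gave -0.20 (adjusted p = 0.59).

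**Figure D1:**
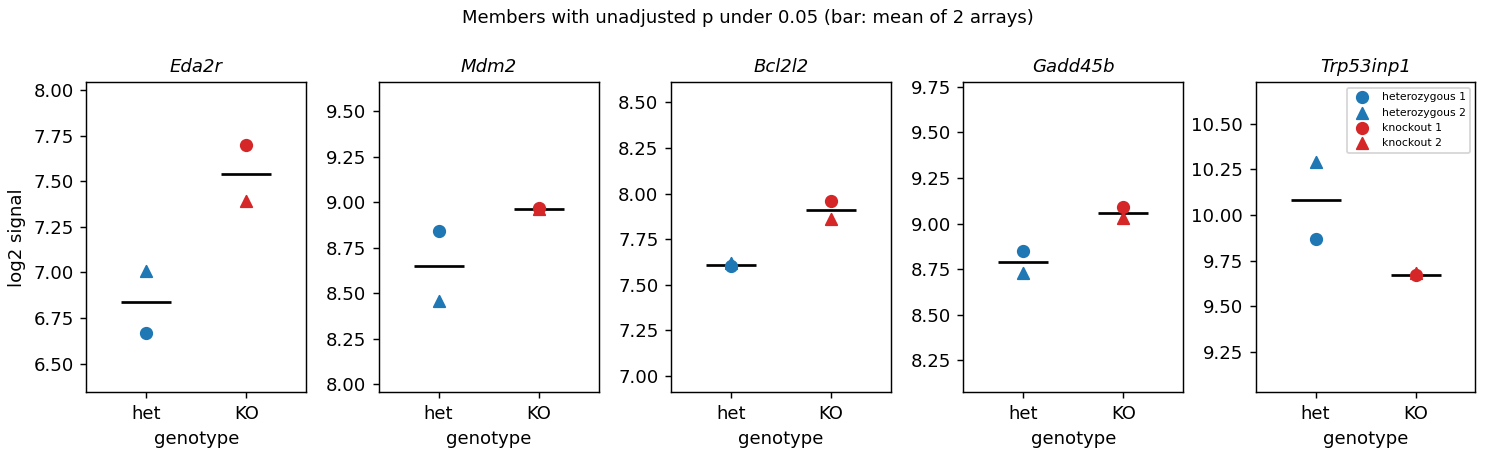
The plot gives the log2 signal of Eda2r, Mdm2, Bcl2l2, Gadd45b and Trp53inp1 in each array, with heterozygous arrays in blue, knockout arrays in red, circles for number 1, triangles for number 2 and bars for means of 2 arrays; each vertical axis spans the same range. The knockout arrays of Trp53inp1 lie below both heterozygous arrays and those of the other genes above them, and the heterozygous pairs of Mdm2 and Trp53inp1 are the most widely spread.

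Of the regulators of p53, Mdm2 read 8.84 and 8.46 in the heterozygous and 8.97 and 8.96 in the knockout arrays. Its groups did not overlap, but heterozygous array 1 lay closer to the knockout pair than to heterozygous array 2. The difference was 0.31 (SE 0.14, limma adjusted p = 0.27). It shrank to 0.12 when heterozygous array 2 was left out and grew to 0.50 when the other heterozygous array was. Mdm4, a relative of Mdm2 that blocks p53 without degrading it by itself, read 9.34 and 9.30 against 9.33 and 9.45. These groups overlapped, and the difference was 0.07 (SE 0.11).

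The 18 members counted as p53 targets here were spread over the roles. Of 17 tested, 12 had a positive and 5 a negative difference, with a median of 0.09; 3 (17.6%) had an unadjusted p under 0.05 and 8 (47.1%) did not overlap, against 17.9% and 49.8% of all tested probe sets. The genes grouped under growth arrest and stress defence are 11 of these targets with Gadd45b and Gadd45g, relatives of Gadd45a that are not counted as p53 targets here. Of 13 tested, 11 had a positive and 2 a negative difference, with a median of 0.18 beside 0.02 for all tested probe sets, of which 54.2% were positive. None passed. In 7 of the 13, or 53.8%, the groups did not overlap, and 3, or 23.1%, had an unadjusted p under 0.05. Both shares, with directions pooled, were near those of all tested probe sets. Of the 7, 6 lay above (27.8% over all probe sets) and 1 below (22.1%). Without Gadd45b and Gadd45g the median was 0.15, and 9 of 11 were positive. With all 13, the median was 0.27 without heterozygous array 1.

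All 3 members of the Gadd45 family, small proteins that bind kinases and cell cycle regulators in stressed cells, had positive differences. Gadd45b read 8.85 and 8.73 in the heterozygous and 9.09 and 9.03 in the knockout arrays, and its groups did not overlap. Its difference was 0.27 (SE 0.11, limma adjusted p = 0.25), 0.21 to 0.33 with 1 array left out. Gadd45g read 7.56 and 7.48 against 7.89 and 7.66, also without overlap, a difference of 0.25 (SE 0.13). Gadd45a, the member that p53 is best known to induce, overlapped: it read 7.91 and 7.72 against 8.17 and 7.81, a difference of 0.18 (SE 0.15) that rested on knockout array 1 and was -0.004 without it.

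Plk2, a polo-like kinase, read 7.42 and 7.28 against 7.87 and 7.48, so that knockout array 1 lay well above the other 3. Its difference of 0.32 (SE 0.15, limma adjusted p = 0.30) was 0.13 without that array and 0.52 without knockout array 2. Phlda3, which holds back the kinase Akt, read 10.10 and 9.75 against 10.13 and 10.30. The lowest knockout value was only just above the highest heterozygous one, and the difference of 0.29 (SE 0.14, limma adjusted p = 0.31) ran from 0.12 to 0.46 with 1 array left out, the lowest without heterozygous array 2. Ccng1, cyclin G1, read 11.85 and 11.93 against 12.05 and 12.21, a difference of 0.24 (SE 0.12) between groups that did not overlap.

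The other arrest and stress genes overlapped between genotypes. Rrm2b, the ribonucleotide reductase subunit that supplies nucleotides for repair, differed by 0.15 (SE 0.16). Sesn1 and Sesn2, sestrins that restrain growth signalling under stress, differed by -0.02 (SE 0.11) and 0.11 (SE 0.15). Btg2, an antiproliferative factor, differed by 0.08 (SE 0.14), and Zmat3, an RNA-binding zinc finger protein, by 0.03 (SE 0.13). For Btg2 the values were 9.44 and 9.63 against 9.44 and 9.78, so that 1 array of each genotype was high and 1 low. Each of these 5 genes took both signs when arrays were left out in turn.

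**Figure D2:**
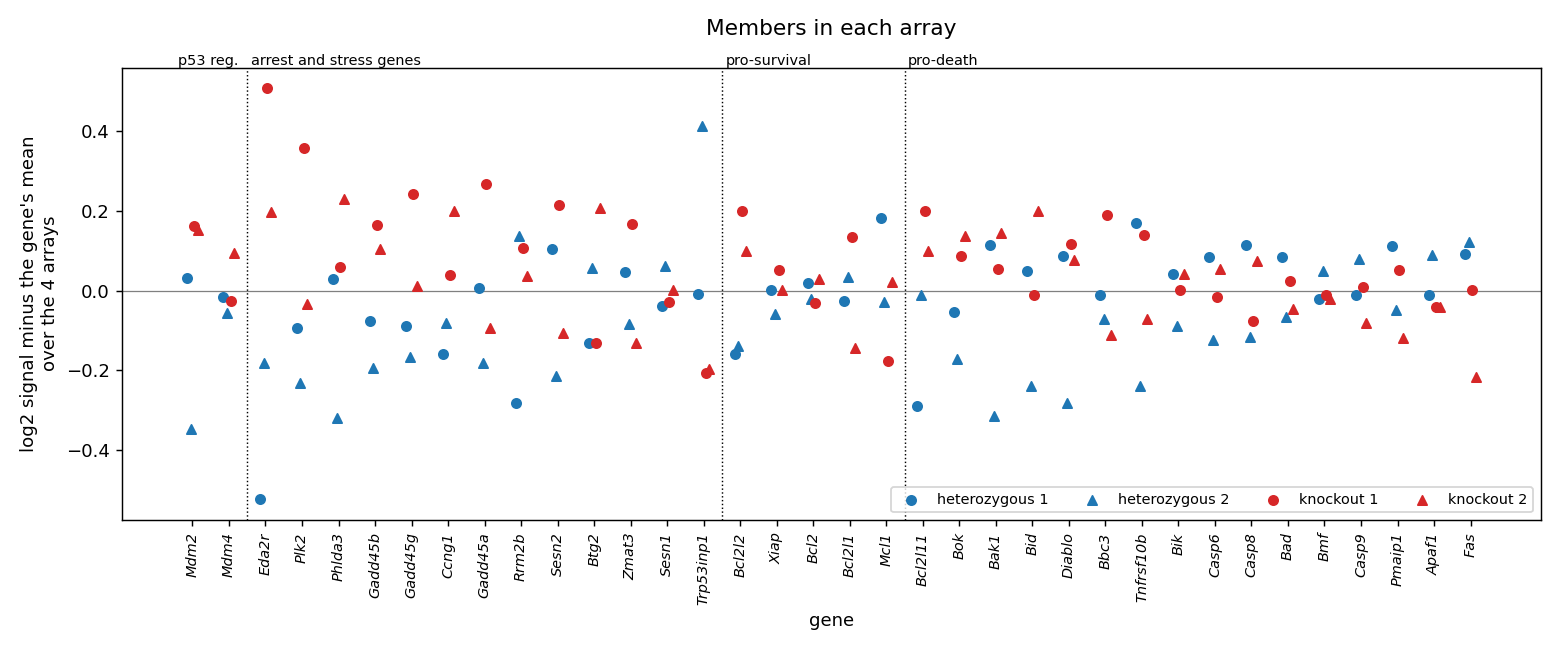
For every tested member the plot shows the log2 signal of each array minus that gene's mean over the 4 arrays (heterozygous blue, knockout red, circles number 1, triangles number 2), ordered by role and by difference. Red symbols lie above blue ones for 6 of the 13 arrest and stress genes, from Eda2r to Ccng1, where 27.8% of all tested probe sets do. In the pro-death block they lie above for 2 of 16 genes and below for 2. Heterozygous array 2 is often lowest in both blocks.

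Promoters of these genes were searched for the E-box CACGTG, the palindromic hexamer that BMAL1 binds with its partner CLOCK. RefSeq windows (GRCm38.p6) that run from before to just after each gene's start were at hand for 30 of the 36 tested members. The E-box was present in windows of 5 of the 30, or 16.7%, and in 8.09% of all 27025 genes with a window. They were Gadd45b, Gadd45g, Eda2r, Bbc3 and Fas, and the hexamer of Eda2r lay after the start, at position 45. The letters around the hexamer are shown for 3 genes whose groups did not overlap, as was so for 49.8% of all tested probe sets. Gadd45b and Gadd45g read higher and Fas lower in the knockout, with the same hexamer upstream. None of the 3 passed the test, and any link of the hexamer with these differences was not tested. The E-box is in capitals, and each run is given 5′ to 3′ on the gene's strand. They lie at chr10:80929876-80929941, plus strand (Gadd45b, E-box from position -185 relative to the start), at chr13:51846503-51846568, plus strand (Gadd45g, from -142), and at chr19:34290519-34290584, plus strand (Fas, from -110).
Gadd45b: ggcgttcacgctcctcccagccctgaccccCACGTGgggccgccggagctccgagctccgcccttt
Gadd45g: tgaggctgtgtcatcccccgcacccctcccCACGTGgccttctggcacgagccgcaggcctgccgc
Fas: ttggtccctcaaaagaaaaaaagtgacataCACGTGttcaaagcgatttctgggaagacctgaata

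The decamer known as the p53 half-site was also searched, which reads the same class of letters on both strands. It was present for 5 of the 30 members, or 16.7%, against 9.55% of all genes with a window. The 5 were Mdm2, Ccng1, Gadd45a, Sesn1 and Bmf. The differences were positive for the first 3 and -0.02 and -0.03 for Sesn1 and Bmf. Shown, with the half-site in capitals, are Mdm2, Ccng1 and Gadd45a, which are known p53 targets with values in every array given here, at chr10:117710905-117710974, minus strand (Mdm2), chr11:40755432-40755501, minus strand (Ccng1), and chr6:67037408-67037477, minus strand (Gadd45a). Such a match describes letters in the window and does not show that a factor binds there.
Mdm2: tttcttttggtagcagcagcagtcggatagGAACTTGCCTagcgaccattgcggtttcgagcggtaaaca
Ccng1: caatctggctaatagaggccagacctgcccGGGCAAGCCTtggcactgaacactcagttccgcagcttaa
Gadd45a: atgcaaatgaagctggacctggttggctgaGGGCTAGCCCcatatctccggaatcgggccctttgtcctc

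The 5 pro-survival members differed little, with a median difference of 0.00. Of these 5, 1 gene (20%) had an unadjusted p below 0.05, close to the array-wide share of 17.9%. Bcl2l2, which encodes Bcl-w, was that gene. It read 7.60 and 7.62 in the heterozygous and 7.96 and 7.86 in the knockout arrays, with a gap between genotypes wider than either pair's spread. The difference was 0.30 (SE 0.12, limma adjusted p = 0.22) and lay between 0.25 and 0.35 with 1 array left out. Bcl2, the founding member, read 9.44 and 9.40 against 9.39 and 9.45. The difference was 0.00 (SE 0.11), and its 95% interval ran from -0.24 to 0.24.

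Bcl2l1, which encodes Bcl-xL, read 8.91 and 8.97 against 9.07 and 8.79, and its heterozygous values lay between the knockout ones (difference -0.01, SE 0.12). Mcl1, a short-lived member that keratinocytes depend on, read 10.12 and 9.91 against 9.76 and 9.96, with overlap and a difference of -0.15 (SE 0.13). Xiap, which inhibits caspases directly, read 8.68 and 8.62 against 8.73 and 8.68. Its groups were separated by less than their own spread, and the difference was 0.06 (SE 0.11). For all 5 genes the 95% interval stayed within 1.5-fold in either direction, a log2 difference of 0.58.

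Array-wide, 17.9% of probe sets had an unadjusted p under 0.05, but none (0%) of the 16 tested pro-death members did. Their median difference was 0.04, 9 were positive and 7 negative, and groups did not overlap for 4, 2 above and 2 below, which is 25% against 49.8% of all tested probe sets. Leaving out heterozygous array 1 gave a median of 0.12, and leaving out the other heterozygous array one of -0.02. For 15 of the 16 the 95% interval lay within 1.5-fold; the interval of Bcl2l11 reached 0.61.

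Among the 7 BH3-only genes, whose proteins sense stress and neutralise pro-survival members, 4 differences were positive and 3 negative. Bcl2l11, which encodes Bim, read 7.24 and 7.52 against 7.73 and 7.63, without overlap. Its difference was 0.30 (SE 0.14, limma adjusted p = 0.29), and 0.16 without heterozygous array 1. Bid, which carries the death receptor signal to mitochondria, differed by 0.19 (SE 0.15). Bik, Bad and Bmf differed by 0.05 (SE 0.13), -0.02 (SE 0.12) and -0.03 (SE 0.11). The BH3-only genes counted as p53 targets here are Bbc3 (Puma) and Pmaip1 (Noxa). Bbc3 read 6.72 and 6.66 against 6.92 and 6.62, and Pmaip1 read 7.40 and 7.24 against 7.34 and 7.17. Both overlapped, with differences of 0.09 (SE 0.16) and -0.07 (SE 0.14), and the Bbc3 signal was close to the filter value of 6.67.

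Of the effectors that open the mitochondrial outer membrane, Bok read 8.72 and 8.60 against 8.86 and 8.91, without overlap, a difference of 0.22 (SE 0.11, limma adjusted p = 0.33). Bak1 read 8.84 and 8.41 against 8.78 and 8.87. Here heterozygous array 2 alone was low, and the difference of 0.20 (SE 0.15) became -0.02 without it. Diablo, whose protein Smac leaves mitochondria and blocks Xiap, showed the same layout at 7.98 and 7.61 against 8.01 and 7.97. Its difference of 0.19 (SE 0.14) was 0.01 without heterozygous array 2.

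In the death receptor arm, Fas, the receptor of Fas ligand and a p53 target, read 7.59 and 7.62 in the heterozygous and 7.50 and 7.28 in the knockout arrays. Both knockout values lay below, array 2 the lowest, and the difference was -0.22 (SE 0.13, limma adjusted p = 0.42). It was -0.10 without knockout array 2. Tnfrsf10b, a receptor for TRAIL, and Casp8, the caspase both receptors activate, overlapped between genotypes and differed by 0.07 (SE 0.16) and 0.00 (SE 0.12). Apaf1, the scaffold that released cytochrome c assembles, read 8.52 and 8.62 against 8.49 and 8.49, a difference of -0.08 (SE 0.11). Casp9, which that scaffold activates, and the executioner Casp6 differed by -0.07 (SE 0.11) and 0.04 (SE 0.12).

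**Figure D3:**
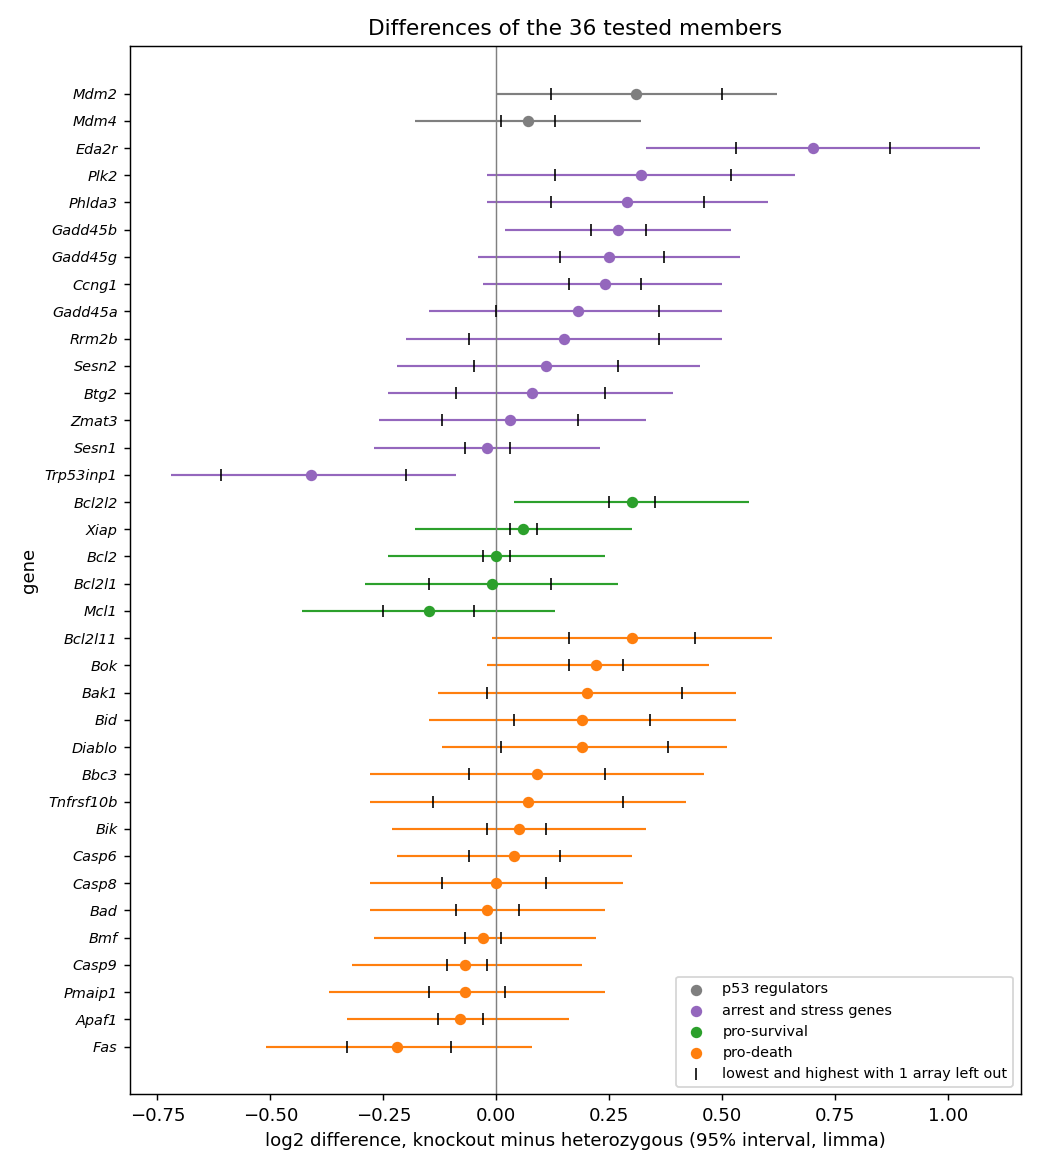
Points give the log2 difference (knockout minus heterozygous) of each of the 36 tested members, coloured by role, with its 95% limma interval as a line and black ticks for the lowest and highest difference with 1 array left out. Intervals of Eda2r, Gadd45b, Bcl2l2 and Trp53inp1 lie off 0 and that of Mdm2 begins at it; those of the pro-death genes all include 0.

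Set side by side, the medians were 0.18 for arrest and stress genes, 0.00 for pro-survival and 0.04 for pro-death genes. The order of the last pair turned with scaling: the 3 medians were 0.20, 0.11 and 0.05 with the values as deposited, and 0.24, 0.14 and 0.09 after median centring. With the median over a role's genes taken in each array, relative to each gene's mean, the arrest and stress genes stood at -0.072 and -0.163 in the heterozygous and 0.166 and 0.010 in the knockout arrays. The pro-death genes stood at 0.067 and -0.081 against 0.019 and 0.012, so that the heterozygous arrays spanned the knockout ones. The pro-survival genes lay within 0.056 of 0 in every array. Each member has 1 role here, and Eda2r and Trp53inp1 are listed with the arrest and stress genes, not as pro-death. The 5 tested p53 targets listed as pro-death (Bbc3, Pmaip1, Fas, Tnfrsf10b and Apaf1) had a median of -0.07, 2 of them positive. The other 11 pro-death genes, not counted as p53 targets here, had one of 0.05. No difference between these groups of genes was tested.

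Levels of these genes varied about as much between mice of 1 genotype as those of other genes. The median gap between the heterozygous arrays was 0.14 for members and 0.14 for all tested probe sets, and that between the knockout arrays 0.11 and 0.12. The difference between genotypes was larger than both gaps for 8 members, or 22.2%, and for 36.2% of all tested probe sets. The 95% intervals of the members reached 0.24 to 0.37 to either side, and for 30 of the 36 they lay within 1.5-fold. The signs depended on scaling. With quantile normalization 24 members were positive and 12 negative, with the values as deposited 30 and 6, and after median centring 32 and 4, where the median of all tested probe sets itself moved from 0.02 to 0.10. Relative to that median, 24, 25 and 25 members were higher.

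Other genes of the same pathways, from 2 lists that exclude the members, also gave no call. Of 73 genes 61 were tested, 0 passed in either direction, and 4, or 6.56%, had an unadjusted p under 0.05, all higher in the knockout, against 17.9% of all tested probe sets. Groups did not overlap for 29, or 47.5%, 17 above and 12 below, against 49.8%. Aifm1, a mitochondrial flavoprotein that supports the respiratory chain and can act in caspase-independent death, read 8.36 and 7.92 against 8.72 and 8.74, a difference of 0.58 (SE 0.15, limma adjusted p = 0.078), 0.36 without heterozygous array 2. Ctsd, the lysosomal protease cathepsin D, read 11.84 and 11.56 against 12.23 and 12.12, a difference of 0.47 (SE 0.13, limma adjusted p = 0.096). Tradd, an adaptor of the TNF receptor, differed by 0.32 (SE 0.12) and Dffb, the nuclease that cuts DNA in apoptosis, by 0.38 (SE 0.16). Next by p were Endog, a mitochondrial nuclease (0.32, SE 0.14), Ddit4, a stress-induced inhibitor of mTORC1 (-0.24, SE 0.11), Rchy1, a ubiquitin ligase of p53 (0.25, SE 0.12), and Birc3, an inhibitor of apoptosis protein (-0.23, SE 0.11).

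The other p53 pathway genes had a median difference of 0.00 over 29 tested and the other apoptosis genes one of 0.10 over 32. Trp63, the p53 relative that basal keratinocytes require, read 10.70 and 10.63 against 10.73 and 10.42, with overlap and a difference of -0.09 (SE 0.13). Cdkn1a was not analysed here.

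**Figure D4:**
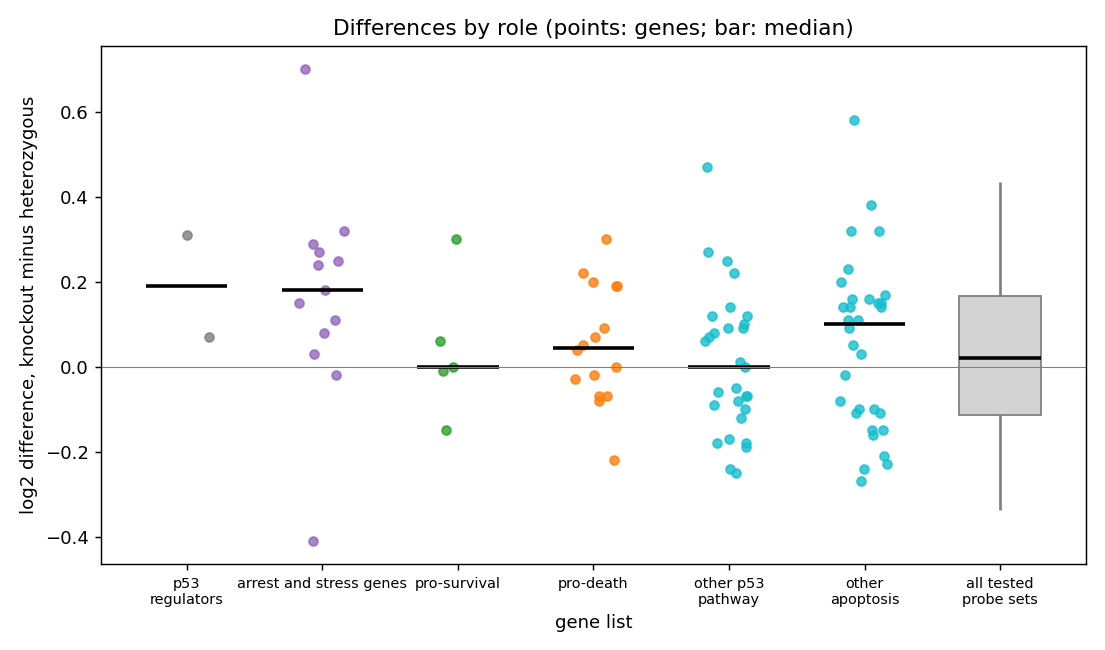
Each point is the log2 difference (knockout minus heterozygous) of 1 gene, by role for the members and by list for other pathway genes, with black bars for medians; the grey box spans the quartiles and its lines the 5th to 95th percentiles of all tested probe sets (-0.34 to 0.44). Eda2r lies above and Trp53inp1 below that range, and the other members lie inside it.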

How the data were processed

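A single Affymetrix whole-transcript array per mouse was analysed, 2 per genotype, from a deposited table of 35557 probe sets; the design text calls the replicates littermates. The deposited values were taken as log2 from their range (2.54 to 14.87). The authors used Affymetrix Expression Console 1.1.1 and PLIER 2.0, per the submitters' processing notes. Their scale is not given, nor whether arrays were normalized together, by any source used here. PLIER summarises probes along a transcript, which can hide a change in part of it. The number of arrays limits the precision.

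The columns' quartiles differed between arrays, so arrays were quantile normalized. Probe sets annotated with 1 gene (21789 of 35557; symbols updated through GRCm38.p6 identifiers for 21698) and a mean above their 25th percentile (6.67) were tested, 16341 in all, with limma 3.58.1 in R 4.3.3 (lmFit, eBayes with trend, 2 residual degrees of freedom, Benjamini-Hochberg over all tested). SEs are moderated. An exact permutation test of 2 against 2 arrays cannot go below 0.333. A gene's probe set was the one with the highest mean. The test was also run on data simulated from its own fitted variances with independent noise. Such data meet the assumptions of the test, so that run cannot show whether these arrays do.

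The members, roles and lists were chosen with earlier results of these data known. Every member is named. Values in each array are given for Mdm2, for up to 5 members per role with the smallest p and for others chosen after their values were seen. Of the other pathway genes, the 8 with the smallest p and Trp63 are named.

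Alternatives were the deposited values, median centring, an offset of 16, no filter or one at the 50th percentile, eBayes without trend or with a robust prior, 1 probe set or the mean of probe sets per gene, the replicate number as a block, each array left out (its partner then assumed to vary like the other pair) and, added after seeing the data, testing the 1621 probe sets with several genes too.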

Additional observations from a re-analysis of the deposited data

How the results depend on the processing

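Across settings the members gave few calls. The number past the adjusted threshold was 0 in the reported fit and 1 after median centring, with a robust prior and with the replicate block, in each case Eda2r, and 0 to 1 with 1 array left out (Trp53inp1 without heterozygous array 1, Eda2r without heterozygous array 2). The number at an unadjusted p under 0.05 was 5, but 10 after median centring (10 higher, 0 lower), 3 with the filter at the 50th percentile (2 higher), which keeps 24 members and drops Eda2r and Bcl2l2, 8 with the block (7 higher) and 2 to 8 with 1 array left out (1 to 7 higher, 0 to 1 lower). With the deposited values 0 were lower. Without heterozygous array 1 it was 8, without knockout array 1 it was 2 and without knockout array 2 it was 3. The other pathway genes gave 4, and 10 with the deposited values, 9 after median centring, 7 with the block and 3 to 9 with 1 array left out. Non-overlapping groups were found for 14 members in the reported fit. The count rose to 20 on the deposited scale and to 21 once arrays were median centred. It fell to 8 under the stricter filter, which keeps 24 members. Shares over all probe sets at those settings are not given here.

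The number in the labels was used as a replicate block, although nothing says that it marks a litter; same-numbered arrays' deviations correlated at 0.167. With it, 1235 probe sets passed in place of 323, and Eda2r had an adjusted p of 0.010. Testing the probe sets with several genes too gave 0 calls and moved Arntl to a limma adjusted p of 0.10 (-0.765). Over the probe sets with several genes, heterozygous array 1 correlated with knockout array 1 at 0.994 and with heterozygous array 2 at 0.944. There knockout array 2 correlated with heterozygous array 2 at 0.988 and with knockout array 1 at 0.965. Arrays of the same number were thus closer there than arrays of the same genotype. Over the probe sets of the reported fit the same values, in this order, were 0.976, 0.982, 0.974 and 0.988. The count over all tested probe sets was 77 without knockout array 1 and 986 without heterozygous array 1, 913 after median centring, 544 with the deposited values and 145 without a filter.

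The median of arrest and stress genes was 0.18, and 0.13 to 0.27 with 1 array left out. That of pro-survival genes was 0.11 with the deposited values, 0.14 after median centring and 0.02 to 0.09 with 1 array left out. That of pro-death genes was 0.04, and -0.02 to 0.12 with 1 array left out. Signs turned for 20 members; the cause was not tested. With the values as deposited the sign turned for Sesn1 (0.091), Bcl2 (0.109), Bcl2l1 (0.099), Bbc3 (-0.042), Bad (0.025), Bmf (0.056), Casp8 (0.103) and Apaf1 (0.014). After median centring the sign turned for Sesn1 (0.126), Bcl2 (0.145), Bcl2l1 (0.135), Mcl1 (0.002), Bbc3 (-0.007), Bad (0.060), Bmf (0.091), Casp8 (0.139), Apaf1 (0.050) and Casp9 (0.023). With 1 array left out the range took in both signs for Gadd45a -0.004 to 0.358, Sesn1 -0.068 to 0.027, Sesn2 -0.048 to 0.273, Btg2 -0.093 to 0.244, Zmat3 -0.118 to 0.183, Rrm2b -0.062 to 0.360, Bcl2 -0.032 to 0.032, Bcl2l1 -0.149 to 0.124. It did so too for Bbc3 -0.064 to 0.238, Pmaip1 -0.151 to 0.018, Bad -0.094 to 0.049, Bik -0.019 to 0.110, Bmf -0.067 to 0.009, Bak1 -0.019 to 0.415, Tnfrsf10b -0.138 to 0.278, Casp8 -0.118 to 0.112 and Casp6 -0.063 to 0.143. Signals near the filter value, such as those of Eda2r and Bbc3, limit how well a difference shows.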
